A study of Mus musculus with 2 samples.

Results

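The genes described here are immediate early genes and heat shock genes, 34 named genes in all, 27 of the first kind and 7 of the second. They were found by symbol in the deposited gene lists of a single-cell RNA sequencing study of the mouse cochlea. Of the 27998 genes in those lists 33 were members, 26 immediate early and 7 heat shock, and the remaining member, Cebpd, was not analysed here. The samples were cochleae of wild type C57BL/6 mice at postnatal day 20, taken from 5 to 8 animals and dissociated with trypsin, and they form 1 group of 2 libraries. Every cell in both libraries therefore went through the same enzymatic dissociation, and no undissociated or untreated tissue was compared. The labels do not say whether the libraries were made from different animals, so the spread that p-values measure may be technical. This spread is only the part left between these 2 libraries after a shift shared by all classes was removed by the library block. The design text of the series gives its purpose as a survey of expression in the cochlea at this age.

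Immediate early genes are transcribed within minutes of a stimulus, without the need for new protein, from promoters held ready by factors such as SRF, CREB and the ternary complex factors. Their products are mostly transcription factors (the AP-1, EGR, NR4A and KLF families) and feedback inhibitors that shut the signal off, and many of their mRNAs are short-lived. Heat shock genes encode chaperones that refold proteins. Some of them, such as Hspa1a and Hspa1b, are switched on by the heat shock factor HSF1 under proteotoxic stress, while others, such as Hspa8, are made in every cell. Both groups are known to rise during enzymatic dissociation of tissue, and in the cochlea immediate early genes are also known to respond to sound and to growth signals.

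Library 1 held 20212520 UMIs (unique molecular identifiers, 1 per captured transcript) in 1610 barcodes and library 2 held 7094752 UMIs in 720 barcodes. Haemoglobin genes took 25.4% and 12.6% of these UMIs, and 2 barcodes occurred in both libraries. After filtering, 1329 and 640 cells were clustered without the members, and clusters were named from listed markers. In 10 classes each library gave at least 10 cells. They were connective tissue fibroblast-like cells (150 and 165 cells in libraries 1 and 2, named from 4 of 9 markers), cochlear fibrocyte-like cells of the lateral wall (36 and 21), macrophage-like cells (22 and 16, 9 of 9 markers), erythroid cell-like cells (410 and 39), a pair of non-sensory cochlear epithelium-like clusters led by Ucma (34 and 22) and by Rnase1 (17 and 28), and 4 clusters that met no naming rule. The unnamed clusters were cluster 1 (163 and 71 cells, led by Tnc, Dapl1 and Npy), cluster 3 (40 and 132, led by Gm42726, Tnfaip6 and Cebpb, itself a member), cluster 4 (60 and 75, led by Lox, Rarres1 and Apold1) and cluster 21 (25 and 12, led by Bgn, Fst and Kcnj8). Clusters 1, 3, 4 and 21 carried Coch, the secreted protein cochlin, at 40.8 to 127 UMIs per 10000, against 1.95 and 1.21 in fibroblast-like cells. Hair cell-like cells, with 8 of 9 markers, numbered 48 and 4 and are described without a test.

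The summed immediate early members set the classes far apart, and the summed heat shock members did not. Levels are given as UMIs per 10000 UMIs outside the haemoglobin genes, library 1 first. The 26 immediate early members together reached 358 and 457 in cluster 3, 379 and 402 in cluster 1, 368 and 391 in cluster 4 and 370 and 422 in cluster 21. Fibroblast-like cells stood at 261 and 243 and macrophage-like cells at 216 and 241, so the highest macrophage-like sum lay just under the lowest fibroblast-like sum. Fibrocyte-like cells stood at 109 and 121, the Ucma epithelium at 53.7 and 53.6, the Rnase1 epithelium at 41.8 and 93.1 and erythroid-like cells at 45.3 and 65.5. Neighbours in this order overlapped among the 4 leading clusters and among the 3 lowest classes. They did not overlap between the 4 leading clusters and fibroblast-like cells, nor between macrophage-like and fibrocyte-like cells, nor between fibrocyte-like cells and the classes below them.

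The 7 heat shock members together lay between 13 and 35.5 in every sum of the 10 classes. The lowest value was that of cluster 1 in library 1 and the highest that of erythroid-like cells in library 1, which stood at 14.4 in library 2. With every cell weighted equally, erythroid-like cells stood at 17.7 and 8.68. Immediate early UMIs outnumbered heat shock UMIs 22.2 to 29.3 times in clusters 1, 3 and 4, 15.3 and 12.2 times in fibroblast-like cells and 5.41 and 4.73 times in fibrocyte-like cells. Hair cell-like cells had the reverse balance, with 22.4 and 22.5 immediate early against 39.3 and 30.9 heat shock UMIs per 10000. They were not alone in this. The 6 spiral ganglion neuron-like cells held 11.7 against 22.9, and the 71 B lineage-like cells of library 1 held 35.3 against 39.4. The 1 B lineage-like cell of library 2 held 48.9 against 20.4. In UMIs, a measure that is not corrected for transcript length, Junb made up 17.2% and Fos 16.5% of the immediate early sum over the 10 classes, and Hspa8 made up 57.0% of the heat shock sum.

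Classes with like immediate early sums differed in depth: cluster 1 cells held a median of 19106 and 19499 UMIs outside haemoglobin, cluster 3 cells 7162.5 and 4701.5. The median mitochondrial share was 9.72% and 11.7% in fibrocyte-like cells and 9.80% and 12.3% in hair cell-like cells, against 2.52% to 2.94% in clusters 1, 3 and 4, and was 0.689% and 0.880% in erythroid-like cells. The part of these differences in the immediate early levels was not tested. Barcodes removed for few genes, 275 and 60, held 95.1% and 96.0% haemoglobin UMIs, and their other UMIs serve as a reference for free RNA. Their immediate early sum was 114 and 142 per 10000. The sums of fibrocyte-like, epithelial, erythroid-like and hair cell-like cells lay below that in both libraries. Coch stood at 25.2 and 19.5 in the removed barcodes and at 17.3 and 20.5 in fibrocyte-like cells. It was 1.90 and 1.63 in the Ucma and 1.49 and 1.16 in the Rnase1 epithelium. Erythroid-like cells held 7.48 and 7.87, hair cell-like cells 1.70 and 2.23. The part of free RNA in the low immediate early levels of these classes was not tested.

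**Figure D1:**
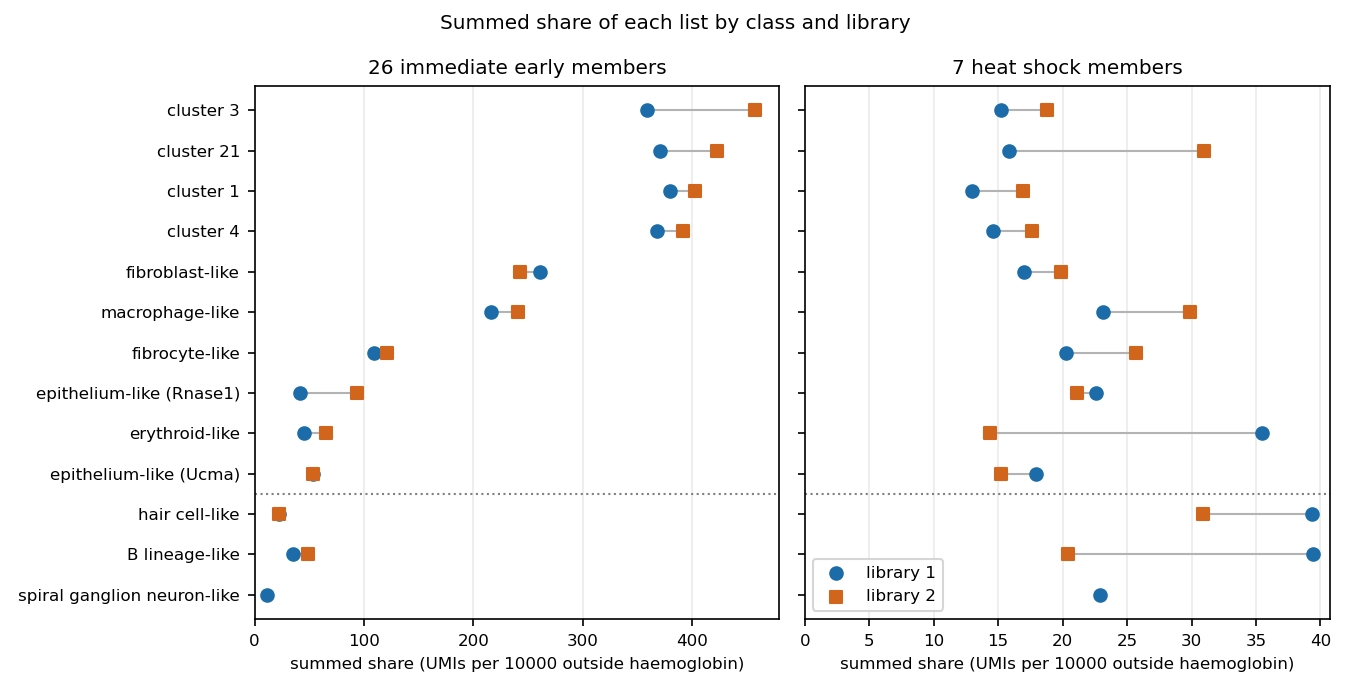
Summed share of the 26 immediate early members (left) and the 7 heat shock members (right) in UMIs per 10000 UMIs outside haemoglobin, 1 point per class and library (circles library 1, squares library 2). Classes below the dotted line were too rare in 1 library for a test; in the 10 tested classes the immediate early sums run from 41.8 to 457 and the heat shock sums from 13 to 35.5.

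The immediate early members varied together across classes and the heat shock members did not. Over the 20 sums (10 classes in 2 libraries) the median Spearman correlation among the 325 pairs of immediate early members was 0.72, and 278 pairs exceeded 0.5. The closest pairs were Socs3 with Gadd45g and Fos with Jun. Among the 21 pairs of heat shock members the median was 0.11, with 1 pair above 0.5, and between the lists it was 0.07 over 182 pairs. The exception among immediate early members was Gadd45b, a stress-inducible regulator of growth arrest, whose median correlation with the others was 0.06. Hsp90aa1 ran against the immediate early members, with a median of -0.46. These correlations describe sums that share 2 libraries and differ in depth, and they carry no test. Pairs of all other genes were not computed, so the counts of pairs have no background beside them. Whether the immediate early members vary together more than other genes was not tested.

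To set the shared pattern beside the sequence, the members' promoters were read from RefSeq (build GRCm38.p6), in which 28 of the members had an entry. The 250 bases before each annotated start were searched on both strands for exact matches to 4 motifs. Members without an entry, among them Egr1, Ier2 and the heat shock genes Hspa8 and Hsp90aa1, were not searched. Sites farther upstream or with other letters were not looked for. The cAMP response element TGACGTCA, bound by CREB, occurred in 2 members (Btg2 and Dusp1) and in 1.55% of all 32851 windows of the table. The CArG box, bound by SRF, occurred in 2 members (Egr2 and Zfp36) and in 1.47% of windows. The TATA box TATAAA occurred in 4 (Fos, Nr4a2, Gadd45b and Gadd45g) and in 12.4%. The heat shock element of 3 alternating units (GAANNTTCNNGAA or TTCNNGAANNTTC) occurred in no member and in 0.466% of windows. The 4 windows below show these motifs in members whose levels are described next, 5′ to 3′ along the gene, with the motif in capitals.
Btg2 (chr1:134079156-134079405, minus strand, cAMP response element): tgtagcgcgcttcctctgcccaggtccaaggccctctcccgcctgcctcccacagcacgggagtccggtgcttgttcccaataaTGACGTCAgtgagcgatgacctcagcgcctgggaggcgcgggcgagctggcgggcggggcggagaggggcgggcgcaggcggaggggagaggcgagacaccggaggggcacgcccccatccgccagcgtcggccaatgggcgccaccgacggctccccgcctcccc
Dusp1 (chr17:26508473-26508722, minus strand, cAMP response element): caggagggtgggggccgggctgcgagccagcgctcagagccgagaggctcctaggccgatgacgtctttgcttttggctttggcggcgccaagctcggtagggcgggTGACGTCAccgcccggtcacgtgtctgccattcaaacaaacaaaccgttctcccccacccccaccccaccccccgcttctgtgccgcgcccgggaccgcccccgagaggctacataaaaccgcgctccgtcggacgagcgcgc
Zfp36 (chr7:28379229-28379478, minus strand, CArG box): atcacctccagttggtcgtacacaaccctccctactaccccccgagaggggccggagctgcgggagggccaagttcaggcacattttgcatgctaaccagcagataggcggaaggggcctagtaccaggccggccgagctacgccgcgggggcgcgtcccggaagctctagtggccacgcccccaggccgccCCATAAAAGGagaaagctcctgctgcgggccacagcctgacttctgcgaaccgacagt
Fos (chr12:85473640-85473889, plus strand, TATA box): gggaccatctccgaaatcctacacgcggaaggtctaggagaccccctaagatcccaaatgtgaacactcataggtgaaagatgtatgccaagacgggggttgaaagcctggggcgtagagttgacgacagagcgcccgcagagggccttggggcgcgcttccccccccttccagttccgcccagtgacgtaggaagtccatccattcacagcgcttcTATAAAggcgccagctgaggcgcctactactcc
A match describes these letters in this window only. The CArG box of Zfp36 lies 58 bases and the TATA box of Fos 33 bases before the start, counted from the motif's first base. The cAMP response elements of Dusp1 and Btg2 lie 143 and 166 bases before it. The heat shock pair Hspa1a and Hspa1b, neighbouring genes on chromosome 17 (chr17:34969190-34972156 and chr17:34956436-34959238, minus strand), have windows that are identical at 247 of 250 positions.

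UMIs were summed per class and library and compared in 1 model of all 10 classes (edgeR quasi-likelihood test with the library as a block, Benjamini-Hochberg adjustment over 4418 genes that had no part in the clustering, threshold 0.05). Egr3 did not pass the filter on low counts, which left 32 members. Of these 31 differed among the classes, where 81.6% of all genes tested did, and Nr4a2 did not (edgeR adjusted p = 0.13). Members are described below by role, and then by class.

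AP-1 is the dimer of Fos and Jun family proteins that binds growth-responsive promoters. Fos (ENSMUSG00000021250, chr12:85473890-85477273) stood at 72.5 and 70.4 UMIs per 10000 in cluster 3, 63.8 and 62.7 in cluster 1, 59.0 and 57.9 in cluster 4, 65.7 and 66.7 in cluster 21 and 51.0 and 44.8 in fibroblast-like cells. It was lower in macrophage-like (40.5 and 30.1) and fibrocyte-like cells (18.8 and 19.1), and lower again in the Ucma epithelium (10.1 and 5.44) and erythroid-like cells (6.66 and 8.26). The removed barcodes held 18.2 and 22.6, so only the classes down to macrophage-like cells stood above the free RNA reference in both libraries. Cluster 3 was highest in both libraries, and the libraries differed little within it. Junb, a partner of Fos, followed the same classes, from 60.1 and 78.9 in cluster 3 and 69.7 and 68.5 in cluster 1 to 5.59 and 7.87 in erythroid-like cells. Jun ranged from 31.6 and 35.7 in cluster 21 to 2.34 and 3.18 in erythroid-like cells. Fosb, a Fos paralogue, ranged from 11.2 and 14.0 in cluster 1 to 1.22 and 0.841 in the Ucma epithelium. Jund, the family member that most cells carry without stimulation, had the smallest range of the AP-1 genes, with means of the highest and lowest class 5.11 times apart, against 9.58 for Fos and 12.2 for Jun.

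The zinc finger factor Egr1 stood at 19.9 and 22.8 in cluster 1, 15.9 and 18.5 in cluster 4 and 13.6 and 16.1 in cluster 3, and at 2.77 and 2.02 in the Ucma epithelium. Egr2 was as high in macrophage-like cells (1.42 and 2.12) as in cluster 1 (1.11 and 2.29), and the ranges overlapped. Egr3 had 65 UMIs in all 10 classes together. The orphan receptor Nr4a1 was highest in cluster 4 (3.15 and 5.89) and cluster 1 (1.33 and 5.05), and cluster 3 stood at 0.851 and 2.62. Its relative Nr4a2 had at most 0.610 in any sum. Atf3, a stress-induced factor of the ATF and CREB family, was highest in macrophage-like cells (3.61 and 8.48) and stood at 1.06 to 1.45 in library 1 and 3.82 to 5.49 in library 2 in clusters 1, 3, 4 and 21. In fibroblast-like cells it was only 0.542 and 0.905, below these 4 clusters in both libraries.

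Klf2 (chr8:72319033-72321656), a Krüppel-like factor known for its role in endothelium and quiescence, had the widest range of the members with UMIs in all 20 sums, with class means 57.6 times apart. It reached 34.5 and 42.7 in cluster 3, 36.9 and 30.1 in cluster 1, 37.0 and 29.3 in cluster 4 and 22.3 and 25.3 in cluster 21. Fibroblast-like cells held 19.7 and 13.4, fibrocyte-like cells 1.71 and 1.84 and the Ucma epithelium 0.611 and 0.729. The 9 endothelial markers summed to 20.0 to 52.6 in clusters 1, 3, 4 and 21 and to 1.81 and 2.03 in fibrocyte-like cells, and nearly all of this was Emcn (19.1 to 50.2 in the 4 clusters). Pecam1 reached at most 0.0783 per 10000 there, Egfl7 at most 0.0681, Cldn5 at most 0.00592 and Tie1 at most 0.00537. Flt1 reached 1.72 in clusters 1 and 4, Cdh5 0.794 in cluster 21, and Kdr 0.314 and Tek 0.332 in cluster 4. The endothelial list was the one that cluster 4 matched best, with 4 of 9 markers (Kdr, Flt1, Tek and Emcn). No marker of that list was among its 10 leading genes, so the cluster was not named. Klf4 was highest in cluster 1 (7.11 and 7.07) and stood at 6.34 and 6.67 in cluster 3 and at 4.40 and 4.03 in fibrocyte-like cells, below clusters 1, 3, 4 and 21 in both libraries. Klf6 instead was highest in macrophage-like cells, at 4.21 and 7.52, and reached 1.01 and 4.43 in the Ucma epithelium.

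The IER genes encode small early response proteins. Ier2 stood at 24.9 and 37.5 in cluster 3, 25.9 and 24.5 in cluster 1 and 25.3 and 23.9 in fibroblast-like cells, so fibroblast-like cells did not stand apart from the unnamed clusters. Ier3 was 7.99 and 10.4 in fibroblast-like cells and 5.14 and 12.2 in cluster 3. Ier5 (chr1:155096361-155099636), a regulator of HSF1, stood highest in macrophage-like cells, which held 5.63 and 8.10, and no other sum exceeded 3.09 (cluster 21, library 1).

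Among feedback regulators, Btg2, an antiproliferative cofactor, reached 20.2 to 26.4 in clusters 1, 3, 4 and 21 and 2.00 to 3.30 in fibrocyte-like cells. Zfp36 (tristetraprolin, which destabilises AU-rich mRNAs) reached 8.58 to 12.3 in the same clusters and 3.96 and 4.16 in fibrocyte-like cells. Dusp1, a phosphatase that switches off MAP kinases, was not low in fibrocyte-like cells, where 11.7 and 11.5 lay above the 7.32 and 6.74 of fibroblast-like cells in both libraries. Socs3, the inhibitor of cytokine signalling, was highest in cluster 21 (14.6 and 19.2) ahead of cluster 4 (10.1 and 10.5), with no overlap. Gadd45g was highest in cluster 4 (13.8 and 19.8), where cluster 3 held 5.59 and 18.2. Its paralogue Gadd45b was 0.141 and 2.24 in the Ucma epithelium and at most 1.16 in the other sums.

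Nfkbia, the inhibitor of NF-kappaB and one of its targets, was highest in macrophage-like cells at 8.47 and 11.1, above 4.50 and 7.51 in cluster 3. Rgs2, which dampens G protein signalling, stood at 5.98 and 5.88 in macrophage-like cells and at 4.12 and 6.32 in cluster 3, which overlapped. Cebpb, a factor of inflammation and adipogenesis, was 4.58 and 20.7 in cluster 21 and 2.52 and 14.3 in cluster 3, so the libraries differed more than these classes did.

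The heat shock members each had an order of their own. The inducible Hspa1a stood at 3.14 and 1.65 in fibroblast-like cells, 1.29 and 4.29 in cluster 21 and 0.711 and 3.18 in macrophage-like cells, against 0.849 to 1.48 in library 1 and 0.728 to 1.17 in library 2 in clusters 1, 3 and 4. Hspa1b had 84 UMIs in all, and fibrocyte-like cells held the highest level in both libraries, 0.485 and 0.267. The longest annotated transcripts of the pair share 63.8% of the 31-base words of Hspa1a but none in their last 500 bases, where tags from transcript ends fall. No source used here says how reads common to both were counted, so the split between them is uncertain.

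The constitutive chaperone Hspa8 varied least of all members, with class means 2.54 times apart, from 18.5 and 21.8 in macrophage-like cells to 6.83 and 9.04 in cluster 1. Erythroid-like cells held 21.4 in library 1 and 7.49 in library 2. Dnajb1, the HSP40 partner of HSP70, was highest in macrophage-like cells (1.84 and 2.41). Hsp90aa1 (chr12:110690605-110702728), the inducible cytosolic HSP90, was highest among the 10 classes in erythroid-like cells at 11.4 and 4.95, with 1.24 to 3.53 in the other sums. Hsph1, the HSP110 nucleotide exchange factor, was at most 0.794. The small heat shock protein Hspb1 was 7.67 and 4.64 in the Rnase1 epithelium and 0.652 and 0.0964 in macrophage-like cells.

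Single classes were next set against the other 9, each of which had equal weight. These comparisons share their sums, so each is given by its own values. Cluster 3 was the tested class with the highest mean share of Sptssb, a small subunit of the enzyme that starts sphingolipid synthesis, at 0.375 and 0.779 per 10000, and was compared for that reason, although cluster 1 (0.585 and 0.515) was close. In cluster 3, 19 of 32 members were higher and none lower, where 9.73% of all genes tested were higher and 2.65% lower. All 19 were immediate early genes, and the median log2 fold change of the 32 was 1.18, against 0.02 over all genes. Cebpb was among the 19, but earlier results of these data had shown it to lead this cluster, so its call is a description. Gadd45g and Klf2 were also among the 10 leading genes of the cluster. Klf2 was higher by 2.69 ± 0.17 (SE, edgeR adjusted p = 4.3e-18), Gadd45g by 2.16 ± 0.19 (adjusted p = 3.3e-13, same edgeR test) and Klf4 by 1.90 ± 0.20. Btg2 (1.72), Rgs2 (1.70), Socs3 (1.63), Junb (1.53) and Fos (1.51) were higher as well. The immediate early members that did not pass were Atf3 (0.56), Ier5 (0.47), Nr4a1 (0.82), Nr4a2 (1.26), Klf6 (0.48) and Gadd45b (-0.64). None of the 7 heat shock members passed by edgeR. Hsph1 (-1.24 ± 0.52) had an unadjusted p under 0.05, the only one of the 7, and DESeq2 called none of the 7. Without the sum of library 1 or of library 2 the count of higher members was 17 or 14.

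Clusters 1 and 4 had immediate early levels close to those of cluster 3. In a comparison added after the levels had been seen, cluster 3 differed from the mean of clusters 1 and 4 in 0 members and in 0% of all 4418 genes (edgeR). At an unadjusted p under 0.05 there were 1 member, Nr4a1 (-1.12 ± 0.32), and 387 genes, and DESeq2 called none of either. Against the same 3 clusters together, also a comparison added afterwards, fibroblast-like cells were lower in 10 of 32 members and higher in none, where 6.59% of all genes were lower and 8.31% higher. Gadd45g was lower by -1.80 ± 0.25 (edgeR adjusted p = 1.3e-07), Atf3 by -1.78 ± 0.30, Nr4a1 by -1.16 ± 0.29, Nfkbia by -1.11 ± 0.23 and Klf2 by -1.09 ± 0.24. The others were Dusp1, Jun, Jund, Socs3 and Rgs2, from -0.99 to -0.71. Fos (-0.42 ± 0.26) and Ier2 (-0.03 ± 0.23) did not pass. The count of 10 was 5 with DESeq2, 2 without the library block and 4 without the fibroblast-like sum of library 2, so it depends on these choices.

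**Figure D2:**
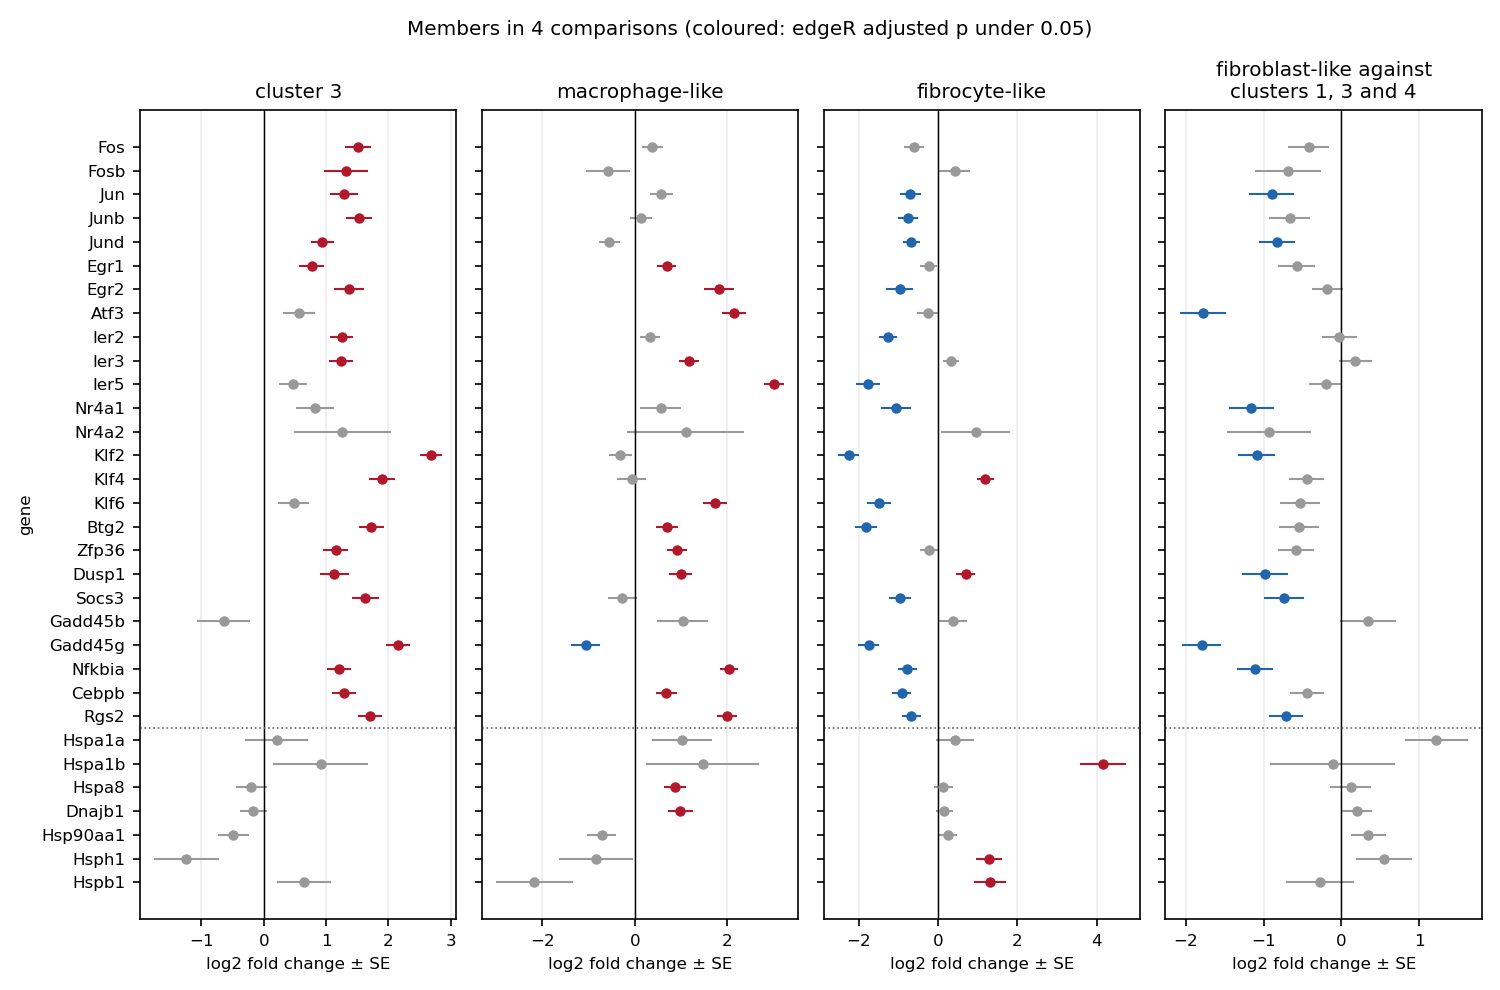
Log2 fold change ± SE (edgeR) of the 32 fitted members in 4 comparisons, the first 3 against the mean of the other 9 classes; red marks members that were higher and blue members that were lower at an adjusted p under 0.05, and the dotted line parts immediate early from heat shock members. In cluster 3 the 19 coloured points are all immediate early and all to the right of 0, in fibrocyte-like cells 15 lie to the left.

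Connective tissue fibroblast-like cells, taken against the mean of the other 9 classes, were higher in 13 of 32 members and lower in 1, where 16.3% and 3.55% of all genes were. The median log2 fold change was 0.38 over the members and 0.11 over all genes. Ier3 (1.49 ± 0.18, edgeR adjusted p = 4.0e-09), Klf4 (1.46 ± 0.20), Klf2 (1.30 ± 0.19) and Egr2 (1.20 ± 0.21) led, and Hspa1a (1.55 ± 0.37) was the one heat shock member. Atf3 was lower by -1.17 ± 0.28. The higher count was 8 with erythroid-like cells left out of the comparison, 8 at a coarser clustering, and 6 without the fibroblast-like sum of library 1. The lower call was lost without the library block and without the sum of library 2.

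Macrophage-like cells were higher in 14 of 32 members and lower in 1, where 12.4% and 6.75% of all genes were. Whether these cells were resident in the cochlea was not tested. The members' median was 0.69, that of all genes -0.21. In this class Coch stood at 18.0 per 10000 in library 1 and 1.25 in library 2, and Emcn at 4.32 and 0.482. Whether RNA of other cells was mixed into the sum of library 1 was not tested. Ier5 was higher by 3.01 ± 0.21 (edgeR adjusted p = 5.5e-17), Atf3 by 2.15 ± 0.27, Nfkbia by 2.05 ± 0.20 (adjusted p = 1.0e-12, same edgeR test), Rgs2 by 2.00 ± 0.22, Egr2 by 1.83 ± 0.32 and Klf6 by 1.73 ± 0.26. None of Fos, Fosb, Jun, Junb and Jund passed, with values from -0.58 to 0.57. Hspa8 (0.87 ± 0.24) and Dnajb1 (0.99 ± 0.27) were higher too, and Gadd45g was lower by -1.06 ± 0.32. The Hspa8 call was lost without the sum of either library. That of Dnajb1 was lost without the library block and without the sum of library 1. The higher count was 9 without the library block and 9 without the sum of library 2, where the lower call was lost as well. Ier5, Nfkbia, Rgs2, Egr2, Klf6 and Zfp36 passed in each of the 13 alternatives and without either library's sum.

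Cochlear fibrocyte-like cells, which recycle potassium in the lateral wall, were lower in 15 of 32 members and higher in 5, where 8.10% and 21.0% of all genes were. The members' median log2 fold change was -0.43, against 0.11 over all genes. The 15 were all immediate early, among them Klf2 (-2.26 ± 0.27, edgeR adjusted p = 8.2e-10), Btg2 (-1.82 ± 0.28), Ier5 (-1.77 ± 0.30), Gadd45g (-1.76 ± 0.28), Klf6 (-1.49 ± 0.31) and Ier2 (-1.27 ± 0.24). Against this direction Klf4 was higher by 1.19 ± 0.21 and Dusp1 by 0.70 ± 0.25. The other 3 higher members were heat shock genes, Hspa1b (4.17 ± 0.57, edgeR adjusted p = 4.7e-08, with 40 of its 84 UMIs in this class), Hspb1 (1.31 ± 0.40) and Hsph1 (1.28 ± 0.33). Hspa1b passed the low count filter mainly through this class, so its call describes where its UMIs were. The lower count was 7 without the library block, 7 or 9 without the fibrocyte-like sum of library 1 or 2, and 6 with haemoglobin kept in the library sizes. The higher count was 3 without the block, 3 with DESeq2 and 2 without the sum of library 1. Klf2, Btg2, Ier5, Ier2, Klf6, Klf4 and Hsph1 passed in every alternative that gave them a value. Hspa1b had no value at a minimum count of 30 or without the sum of library 1.

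Erythroid-like cells were lower in 26 of 32 members and higher in 3, where 31.1% and 22.1% of all genes were, with a median of -1.89 over the members and -0.33 over all genes. Fos was lower by -2.14 ± 0.29 (edgeR adjusted p = 5.5e-08) and Klf4 by -2.92 ± 0.36. Hsp90aa1 was higher by 2.05 ± 0.19 (edgeR adjusted p = 5.3e-12), Hsph1 by 1.31 ± 0.30 and Dnajb1 by 0.74 ± 0.21. Of the immediate early members only Nr4a2 did not pass. These values rest on the scale used, UMIs outside haemoglobin: haemoglobin took 70.6% and 84.3% of the UMIs of this class, and with it kept in the library sizes none of the 3 was higher, Dnajb1 was at -1.28 and Hsph1 at -0.53. They also rest on library 1, which held 410 cells against 39. Without that library's sum the counts were 12 lower and 1 higher, with Hsph1 at -0.28 and Dnajb1 at -0.17. Weighting every cell equally, the immediate early sum of erythroid-like cells was 88.6 and 96.2 per 10000 in place of 45.3 and 65.5. Their heat shock sum was then 17.7 and 8.68 in place of 35.5 and 14.4, so the summed level rests more on the deeper cells.

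Hair cells are the sensory receptors. Hair cell-like cells had low immediate early sums and high heat shock sums, and Hspa8 and Hsp90aa1 made up most of the latter. The heat shock members other than these held only 2.03 and 2.78 UMIs per 10000 together. The same members held 4.39 and 5.55 in cluster 1, 6.32 and 8.30 in fibrocyte-like cells and 0.682 and 2.24 in the Ucma epithelium. The 48 hair cell-like cells of library 1 held 2.88 UMIs of Fos per 10000 (exact Poisson 95% interval 2.51 to 3.30) and 0.609 of Klf2 (0.444 to 0.814), below every tested class for Fos in library 1. They held 23.4 of Hsp90aa1 (22.3 to 24.5), above every tested class. The 4 cells of library 2 gave 2.78 for Fos (1.33 to 5.12) and 16.7 for Hsp90aa1 (12.7 to 21.5). The 6 spiral ganglion neuron-like cells, all of library 1, gave 1.21 for Fos (0.798 to 1.76) and 8.34 for Hsp90aa1 (7.18 to 9.63). The 71 B lineage-like cells of library 1 gave 2.36 for Fos, 9.35 for Hsp90aa1 and 28.6 for Hspa8, with 6.56 for Klf2. Intervals cover counting error only, and with so few cells in 1 of the libraries no test was made.

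Within a class, a subset of the immediate early members was higher in library 2. With 1 sum on each side there is no test, and a difference past 2-fold is given beside the share of all genes with at least 20 UMIs that passed it. In cluster 3, 8 of 25 immediate early members were at least 2-fold higher in library 2 and none lower, where 4.47% of genes were higher. In cluster 1 it was 8 of 26 (2.32% of genes), in cluster 4 4 of 25 (2.45%), in fibroblast-like cells 5 of 25 (2.62%) and in erythroid-like cells 8 of 22 (10.6%). None was 2-fold lower in any of the 5 classes, where 3.59%, 1.91%, 2.23%, 3.22% and 22.7% of genes were, in the same order.

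Cebpb, Atf3, Nr4a1 and Gadd45g were among the members that differed most. Cebpb went from 2.52 to 14.3 per 10000 in cluster 3 (a log2 difference of 2.50), from 3.11 to 10.2 in cluster 1 (1.71), from 5.03 to 13 in cluster 4 (1.37) and from 2.57 to 9.21 in fibroblast-like cells (1.84). Atf3 was higher by 1.84, 2.15 and 1.60 in clusters 3, 1 and 4 and by 0.74 in fibroblast-like cells. Nr4a1 was higher by 1.60, 1.92, 0.90 and 1.10 in the same order, and Gadd45g by 1.70, 1.09, 0.52 and 1.40. The scarcer Nr4a2 was higher by 2.64 in cluster 1, on 36 and 103 UMIs, and in cluster 3 it had 0 and 35 UMIs. Fos, by contrast, differed by -0.04, -0.02, -0.03 and -0.19, and Egr1 by 0.24, 0.19, 0.21 and 0.15. Junb lay between -0.03 and 0.39. Among heat shock members Dnajb1 was higher by 1.03, 0.79, 0.66 and 1.11, while Hspa1a was lower by -0.17, -0.34, -0.22 and -0.93. Haemoglobin took 5.96% of the UMIs of cluster 3 in library 1 and 1.28% in library 2, and the share was also higher in library 1 in clusters 1 and 4 and in fibroblast-like cells. The part of free RNA in the differences was not tested.

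**Figure D3:**
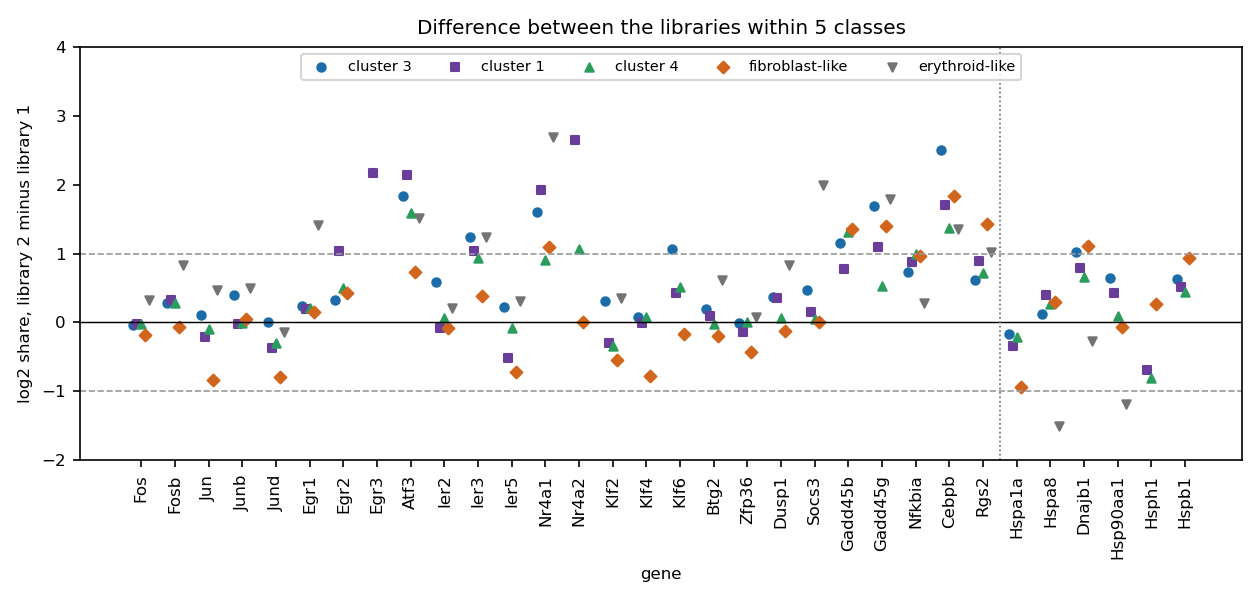
Log2 share in library 2 minus library 1 for each member in the 5 classes with at least 30 cells in both libraries (1 symbol per class), for members with more than 3 UMIs in each library and at least 20 in both together. Dashed lines mark 2-fold; Cebpb lies above the upper line in all 5 classes, Fos lies near 0 in clusters 1, 3 and 4.

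Detection per cell was compared after each cell had been thinned to 2000 UMIs outside haemoglobin, a depth that every cell reached except 290 and 29 erythroid-like cells. Fos was then seen in 100% of cells of clusters 1, 3 and 4 in both libraries (lowest exact binomial 95% bound 91.2%), in 97.3% and 95.8% of fibroblast-like cells and in 83.3% and 90.5% of fibrocyte-like cells. In erythroid-like cells, taken here as a reference, it was seen in 57.5% and 60.0%. Whether these cells make Fos themselves was not tested. The shares in the Ucma epithelium (64.7% and 50.0%) and hair cell-like cells (41.7% and 50.0%) did not exceed that level beyond their intervals. This does not show that Fos there was free RNA, because the reference may hold more of it. Coch stood at 7.48 and 7.87 per 10000 in erythroid-like cells. It was 1.90 and 1.63 in the Ucma epithelium and 1.70 and 2.23 in hair cell-like cells. The erythroid-like level rests on the 120 and 10 cells that reached this depth. The part of free RNA in these shares was not tested. Unthinned, the shares were 82.4% and 87.2% in erythroid-like cells (median depth 1339 and 1035) and 93.8% and 75.0% in hair cell-like cells (13732 and 9460.5). Ier5 was seen in 68.2% and 75.0% of macrophage-like cells, against 10.8% and 20.0% in erythroid-like and 18.0% and 19.4% in fibroblast-like cells. Hsp90aa1 was seen in 95.8% of hair cell-like cells of library 1 and in 29.4% to 42.3% of cells in clusters 1, 3 and 4.

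Taken cell by cell, the median cluster 3 cell held, after thinning, 75 and 90 immediate early and 3 and 4 heat shock UMIs, the median fibroblast-like cell 54 and 49 against 3 and 3. Within a class and library the Spearman correlation between the summed lists was 0.03 and 0.18 in cluster 3, 0.05 and 0.16 in cluster 1, 0.02 and 0.19 in cluster 4 and 0.04 and 0.31 in fibroblast-like cells. Fibrocyte-like cells gave -0.43 over 36 cells in library 1 and 0.30 over 21 in library 2, and the Ucma epithelium gave 0.35 and 0.22 over 34 and 22. Among 120 erythroid-like cells of library 1 it was -0.50, where the immediate early sum ran against depth (-0.71) and the heat shock sum with it (0.63). With 3 or so heat shock UMIs per cell, correlations of this size are no finding.

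**Figure D4:**
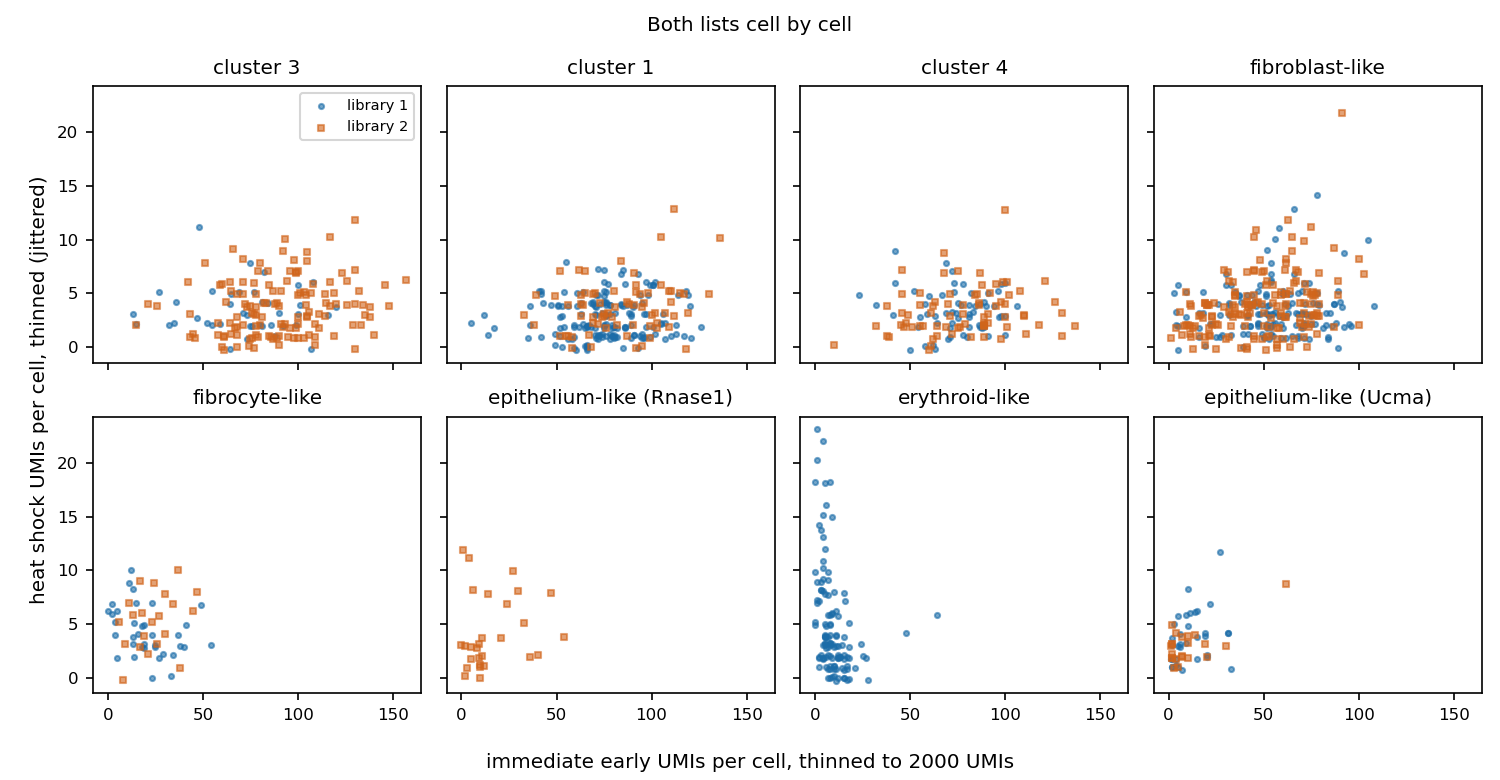
Immediate early UMIs (x axis) against heat shock UMIs (y axis, jittered) per cell after thinning to 2000 UMIs outside haemoglobin, 1 panel for each of 8 classes (circles library 1, squares library 2). Clusters 1, 3 and 4 lie to the right at medians of 75 to 90, the epithelial and erythroid-like cells to the left at medians of 6 to 10, while the heat shock medians are 2 to 6 in all panels. A class's cells from 1 library are drawn only where 20 or more reached that depth.

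Among 2958 other genes with at least 20 UMIs in 10 or more of the 20 sums, those most like the immediate early sum in Spearman correlation were Tmem37 (0.90), Pbx3 (0.89), Pltp (0.89), Pip5k1b (0.89) and Arid5b (0.86). Those most like the heat shock sum were Nt5c (0.84), Slc25a3 (0.84), Sdhd (0.83), Vdac2 (0.82) and Ppia (0.81), of which Slc25a3, Sdhd and Vdac2 encode mitochondrial proteins. The correlations rest on 20 sums that share 2 libraries. Pltp, Pip5k1b, Arid5b, Sdhd and Ppia were among the genes from which those for clustering were drawn. They may therefore have helped to define the classes.

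Other genes of the same pathways were counted from lists chosen by function. Of 37 other early response genes that were tested, such as Fosl2, Myc and Ppp1r15a, 13 were higher and none lower in cluster 3, 12 and none in fibroblast-like cells, 12 and 4 in macrophage-like cells, 9 and 8 in fibrocyte-like cells, and 4 and 23 in erythroid-like cells. The share higher was 35.1% in cluster 3, against 9.73% of all genes, 32.4% in fibroblast-like cells, against 16.3%, and 32.4% in macrophage-like cells, against 12.4%. In fibrocyte-like cells 24.3% were higher and 21.6% lower, where 21.0% and 8.10% of all genes were, so the higher share was near that of all genes. In erythroid-like cells 10.8% were higher and 62.2% lower, against 22.1% and 31.1%. Their median log2 fold change in cluster 3 was 0.50, against 1.26 for the 25 fitted immediate early members. Of 33 other cytosolic chaperones 1 was higher and 2 lower in cluster 3, and 9 and 2 in fibrocyte-like cells, where the 7 heat shock members had 3 and none. In fibrocyte-like cells these are 27.3% and 6.06% of the chaperones, near the 21.0% and 8.10% of all genes. In erythroid-like cells 16 were higher and 7 lower, which is 48.5% and 21.2%, against 22.1% and 31.1% of all genes. Of 17 tested genes of the endoplasmic reticulum stress response 1 was higher and 1 lower in cluster 3, while fibrocyte-like cells had 2 higher and 6 lower (11.8% and 35.3%, against 21.0% and 8.10% of all genes).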

How the data were processed

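Per the submitters' processing notes, Cell Ranger 2.1.0 and the mouse build mm10 were used. The authors deposited raw UMI counts per gene and barcode, not normalized, and no source used here says how barcodes were chosen. Members, gene lists, markers and comparisons were chosen with earlier results of these data known, and all 34 members were to be named.

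Barcodes under 300 genes (275 and 60) or over 20% mitochondrial UMIs (4 and 16) were removed, and Scrublet (expected rate 2%) removed 2 and 4 as doublets. A rate of 6% marked as many. Because it marked so few, doublets may remain. Cells were clustered (scanpy 1.11.5, Leiden resolution 1, 30 components, 15 neighbours, seed 0) on 2024 genes, the markers and genes with an odd identifier checksum, so no member took part. A class needed at least 3 markers and 40% of its list. The rules that split 1 mixed cluster and required a leading marker were set after a first clustering had been seen.

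The counts of each class were added up within a library. The 20 sums entered 1 edgeR 4.0.16 fit (R 4.3.3, limma 3.58.1) with UMIs outside 10 haemoglobin genes as library size, no further scaling, a minimum count of 10 (8965 genes, 4418 tested), the library as a block and robust quasi-likelihood dispersions on 9 residual degrees of freedom. The block was used because sums of the same library came from the same suspension. DESeq2 1.42.0 was an alternative. Levels are shares of summed UMIs, single-library shares carry exact Poisson intervals, and shares of cells carry exact binomial 95% intervals. The fits were tested on simulated data. Positions follow GENCODE vM21 on GRCm38, the same build as mm10. Free RNA was not subtracted.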

Additional observations from a re-analysis of the deposited data

How the results depend on the processing

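The count of members that differed among classes stayed within 1.5 times of 31 in every alternative run. Of the counts by class, these moved by more. With DESeq2, 3 members were higher in fibrocyte-like cells, 3 were lower in macrophage-like cells and 5 were lower in fibroblast-like cells than in clusters 1, 3 and 4. With haemoglobin kept in the library sizes, 6 were lower in fibrocyte-like cells, 0 lower in macrophage-like cells, 0 higher in erythroid-like cells and 6 lower in fibroblast-like cells than in clusters 1, 3 and 4. Hsph1 (-0.53) and Dnajb1 (-1.28) then changed sign in erythroid-like cells. With no low count filter, 2 were lower in macrophage-like cells, 1 higher in fibroblast-like cells than in clusters 1, 3 and 4, and 1 lower in cluster 3 than in clusters 1 and 4. With a minimum count of 30, 3 were higher in fibrocyte-like cells and 1 higher in fibroblast-like cells than in clusters 1, 3 and 4. With no replicate block (the library as block left out), 0 were lower in fibroblast-like cells, 3 higher and 7 lower in fibrocyte-like cells, 9 higher and 0 lower in macrophage-like cells, and 2 lower in fibroblast-like cells than in clusters 1, 3 and 4. With erythroid-like cells left out, 8 were higher in fibroblast-like and 2 lower in macrophage-like cells. Without cluster 3, an alternative chosen after seeing the data, 0 were lower in macrophage-like cells. At a stricter cell filter or a Leiden resolution of 2.0, 3 were lower in macrophage-like cells, and at a resolution of 0.5, 2 were lower there and 8 higher in fibroblast-like cells. Fibrocyte-like cells had no value under the stricter filter, and cluster 3 none at a resolution of 0.5.

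Leaving out the class's sum of library 1 or 2 (the lone sum is assumed to vary like the other classes) gave 6 to 10 higher and 0 to 1 lower in fibroblast-like cells, 2 to 4 and 7 to 9 in fibrocyte-like cells, 9 to 10 and 0 to 1 in macrophage-like cells, and 1 to 4 and 12 to 25 in erythroid-like cells, where Hsph1 was at -0.28 to 1.42 and Dnajb1 at -0.17 to 0.96, both negative without library 1. It gave 14 to 17 higher in cluster 3, and 0 to 1 higher and 4 to 7 lower in fibroblast-like cells against clusters 1, 3 and 4. The cause of these moves was not tested. TMM factors moved the median of all genes by -0.11 in fibroblast-like and 0.47 in erythroid-like cells, DESeq2 size factors by 0.15 in macrophage-like and 0.11 in erythroid-like cells, and no called member changed sign with either. With TMM the share of calls that were higher, over all genes, was 70.9% in place of 82.1% in fibroblast-like cells and 61.5% in place of 41.5% in erythroid-like cells. With haemoglobin kept it was 92.3%, 84.8%, 79.7%, 93.5% and 4.43% in fibroblast-like, fibrocyte-like, macrophage-like, cluster 3 and erythroid-like cells, where it had been 82.1%, 72.2%, 64.7%, 78.6% and 41.5%. Rare classes are limited by depth: the smallest fitted sum, cluster 21 in library 2, held 62952 UMIs outside haemoglobin.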
